A study of Mus musculus with 6 samples.

Results

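Shox2 and other genes of the sinus node, the pacemaker of the heart, were followed through RNA of 6 whole mouse hearts measured on Affymetrix Mouse430_2 arrays. The genes are the transcription factor genes Shox2, Tbx3 and Isl1 and the pacemaker channel genes Hcn2, Hcn3 and Hcn4. They were read at every probe set annotated to that gene alone, which gave 11 probe sets of 45037 on the array, for 5 of the 6 genes and of 18193 genes named on it. No probe set used here names Hcn4, so it was not analysed. Shox2 was chosen by its difference between the genotypes in earlier results of these same data, and what brought in the other genes is not recorded. Values of mutant against wild-type hearts are therefore given for all members as a description, with no test.

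The arrays held 3 hearts labelled EphB4 Mutant and 3 labelled wild type, all of strain C57B6. Ephb4 encodes a receptor tyrosine kinase of endothelium, and ephrin-B2, its ligand, is named in the series title together with the wall of the ventricle. The labels give no age, sex, kind of mutation or cells that carry it. Each array was taken as 1 animal, since the design text speaks of 6 mice; p-values measure the spread between these arrays. Descriptions of mutant hearts 1 and 2 and of wild-type hearts 1 and 2 open with the letters eI, and those of mutant 3 and wild-type 3 with eM. The meaning of the letters is not stated.

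The sinus node starts each heartbeat. It forms where the great veins enter the right atrium, a region called the sinus venosus. There Shox2 holds back the working-muscle programme of Nkx2-5, Tbx3 represses genes of the contracting chambers, and Isl1 marks cardiac progenitors and stays on in the node. HCN channels carry the inward current that drives the pacemaker cells towards their next beat and respond to cyclic AMP. Hcn4 is the main one in the node and Hcn2 accompanies it, while Hcn3 is a lesser cardiac member of the family. The node is a small part of a whole heart. In RNA of whole hearts, fewer cells of a type and less RNA per cell cannot be told apart.

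The 250 bases before the annotated starts of Shox2 and Isl1 are shown because these genes set a genotype or a single heart apart below; nothing was measured on this DNA. They are from RefSeq on GRCm38.p6, where 4 of the 6 members matched an entry. Both lie on the minus strand, Shox2 at chr3:66981772-66982021 and Isl1 at chr13:116309689-116309938, and are written 5′ to 3′. Capitals mark matches, on either strand, to TATAAA, to the T-box core AGGTGT, to the NK-homeobox site TNAAGTG and to the homeodomain core TAAT.
Shox2: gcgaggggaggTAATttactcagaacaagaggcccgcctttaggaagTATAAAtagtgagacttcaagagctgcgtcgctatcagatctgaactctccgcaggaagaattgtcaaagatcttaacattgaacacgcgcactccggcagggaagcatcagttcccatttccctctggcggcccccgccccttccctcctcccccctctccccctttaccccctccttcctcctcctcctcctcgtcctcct
Isl1: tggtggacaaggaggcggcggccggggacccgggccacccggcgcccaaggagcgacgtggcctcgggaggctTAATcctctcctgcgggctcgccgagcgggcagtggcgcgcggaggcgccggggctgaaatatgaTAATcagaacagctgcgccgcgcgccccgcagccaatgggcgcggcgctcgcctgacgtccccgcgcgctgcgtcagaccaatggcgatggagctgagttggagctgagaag
The Shox2 window held 1 TATAAA and 1 TAAT, and the Isl1 window held TAAT 2 times. The letters TATAAA were present in 12.4% of the 32851 windows of this length in the table and TAAT in 54.9%. AGGTGT (11.8% of all windows) and TNAAGTG (10.1%) matched in neither.

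Ephb4, the gene named in the mutant label, read 8.14, 7.93 and 8.06 log2 units in the mutant hearts, against 7.83, 8.20 and 8.06 in the wild-type hearts. With the kind of mutation unstated, this level does not check the labels. Cardiomyocyte markers were bright in every heart, with a mean over the list between 12.93 and 13.41. Myl7 of the atrial list (14.13 to 14.52) and Myl2 of the ventricular list (14.58 to 14.74) were both near the top of the range. Sln, also of the atrial list, read 4.65 to 6.76, and how much atrial muscle the samples held was not measured. Array medians lay between 5.89 and 6.01, and the number of arrays limits the precision of every value. The letters moved with signs of RNA quality. The difference between the 3′ and 5′ beta-actin control probe sets was 0.77 in mutant 3 and 0.51 in wild-type 3, against 0.28 to 0.41 in the eI hearts. That of the Gapdh control probe sets hardly separated the letters, at 0.12 in mutant 3 and 0.03 in wild-type 3, against -0.1 to 0.02. An 18S rRNA control probe set read 11.62 and 12.34 in the eM hearts, against 9.75 to 10.42 in the eI hearts. Sex differed too: Xist read 6.73 in mutant 1 and 6.78 in mutant 3, against 11.75 in mutant 2 and 11.51 to 12.33 in the wild-type hearts.

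Shox2 was higher in every mutant heart than in any wild-type heart at its brighter probe set, 1438042_at. The mutant hearts read 6.49, 6.31 and 6.06, against 5.51, 5.70 and 5.71 in the wild-type hearts. The means were 6.29 ± 0.21 in mutant and 5.64 ± 0.11 in wild-type hearts (SD, n = 3 each), a difference of 0.65 log2. Mutant 1 was highest and mutant 3, the eM heart, was nearest to the wild-type range. Among eI hearts alone the difference was 0.79, and the single eM pair gave 0.36. With the Xist level in the model it was 0.67.

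The second Shox2 probe set, 1420559_a_at, did not separate the genotypes. It read 4.77, 4.75 and 4.93 in mutant hearts, against 4.87, 4.84 and 4.56 in wild-type hearts. It was dim: its mean was among the lowest 40% of all probe sets, which were left out of every test. Within the eI hearts both mutants lay below both wild-type hearts, by -0.09, and within eM the mutant lay above, by 0.37. The 2 probe sets of this gene thus gave differences of 0.65 and 0.06. The suffix of the dim one marks probes shared by several transcripts of the gene.

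Markers of atrial muscle, the tissue that borders the sinus node, are given beside Shox2. Of the 7 tested genes of that list, 0 were called between genotypes (limma) and 6 overlapped. The mutant minus wild-type difference was positive for all 7, with a median of 0.22, where 6935 of all 13572 genes tested were positive, with a median of 0.00. The brightest of them, Myl7 and Myl4, differed by 0.04 and 0.03, and in the eM pair Myl4, Nr2f1 and Sln were negative (-0.05, -0.34 and -0.42). The mean level of the list was 9.84, 9.68 and 9.26 in mutant hearts 1, 2 and 3, against 9.45, 9.45 and 9.28 in the wild-type hearts. Mutants 1 and 2 were above the wild-type range, and mutant 3 lay just under it, at 9.26 against 9.28 in wild-type 3. Sln, the atrial calcium pump inhibitor sarcolipin, read 6.76, 6.30 and 4.65 in mutant hearts, against 5.71, 5.89 and 5.08 in wild-type hearts. Kcna5, an atrial potassium channel, read 6.90, 6.91 and 6.99 against 6.62, 6.81 and 6.69, higher without overlap, as were 2.14% of all genes tested. The part of atrial muscle in the Shox2 difference was not tested.

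**Figure D1:**
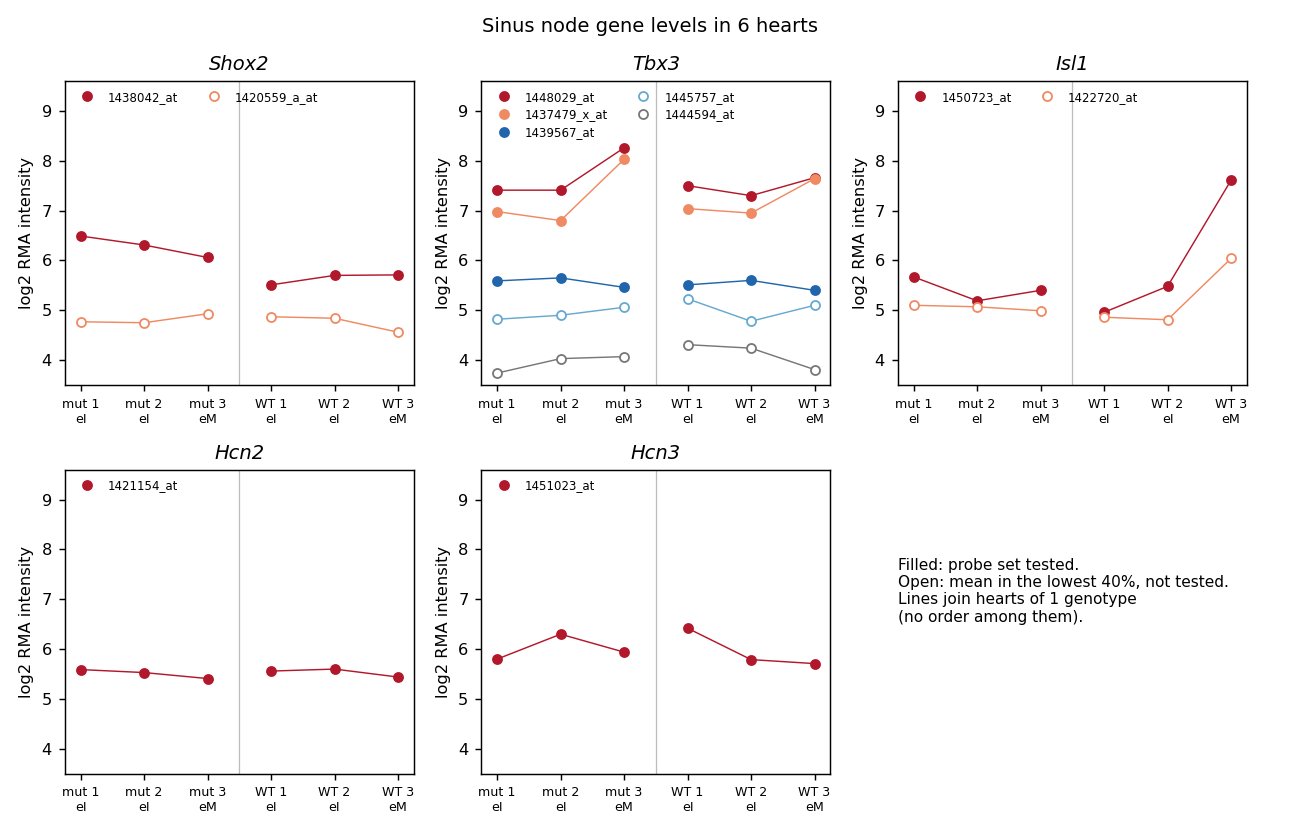
Log2 RMA intensity (y axis) of each probe set of Shox2, Tbx3, Isl1, Hcn2 and Hcn3 in the 6 hearts (x axis, mutant hearts left of wild-type hearts, with their description letters); filled points are probe sets that were tested and open points dim ones that were not. Shox2 1438042_at lies between 6.06 and 6.49 in mutant hearts and between 5.51 and 5.71 in wild-type hearts, 2 Tbx3 probe sets are highest in mutant 3 and wild-type 3, and Isl1 reaches 7.61 in wild-type 3 alone.

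Tbx3 had 5 probe sets, and its brighter 2 followed the letters rather than the genotype. Probe set 1448029_at read 7.41, 7.41 and 8.26 in mutant hearts, against 7.50, 7.30 and 7.66 in wild-type hearts. Probe set 1437479_x_at read 6.98, 6.80 and 8.03 in mutant hearts, against 7.04, 6.95 and 7.64 in wild-type hearts. At both probe sets mutant 3 was highest and wild-type 3 next, and the genotypes overlapped. The mutant minus wild-type difference was 0.21 and 0.06 over all hearts, 0.01 and -0.11 within eI, and 0.60 and 0.38 within the eM pair. Without mutant 3 the differences were -0.07 and -0.32, and with the Xist level in the model -0.04 and -0.35.

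The other 3 Tbx3 probe sets did not show the high eM hearts. Probe set 1439567_at read 5.59, 5.65 and 5.46 in mutant hearts, against 5.51, 5.60 and 5.40 in wild-type hearts, and was lowest in the eM hearts. The dim 1445757_at ranged from 4.78 to 5.23 and the dim 1444594_at from 3.74 to 4.31 over the 6 hearts, with overlapping genotypes. The suffix of 1437479_x_at marks probes that can also match other transcripts, so part of its signal may not be Tbx3.

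Isl1 stood out in 1 heart. At 1450723_at it read 5.67, 5.19 and 5.40 in mutant hearts, against 4.96, 5.48 and 7.61 in wild-type hearts. The dim 1422720_at showed the same heart, with 5.10, 5.07 and 4.99 in mutant hearts, against 4.86, 4.81 and 6.04 in wild-type hearts. At both probe sets wild-type 3 was the highest, and the other 5 hearts lay within 4.96 to 5.67 at the brighter one. The mutant minus wild-type difference of 1450723_at was -0.60 (5.42 ± 0.24 in mutant and 6.02 ± 1.40 in wild-type hearts, SD, n = 3 each). Among eI hearts alone it was 0.21, the eM pair gave -2.21, and without wild-type 3 it was 0.20.

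Markers of other tissues that use Isl1 or Shox2 were set beside that heart. Neuron markers (8 of 9 with a probe set) averaged 6.03 in that heart, within the 5.84 to 6.27 of the other hearts. Limb and face mesenchyme markers (7 of 8) averaged 6.17, against 6.09 to 6.37 in the others. Genes of the venous pole and second heart field, the progenitor region that expresses Isl1 (9 of 10), averaged 6.02, against 5.91 to 6.05. Of 7 tested neuron genes, 3 had a positive difference of eM minus eI: Tubb3, Elavl4 and Th. Tubb3 was high in both eM hearts and in wild-type 2, at 8.70 in mutant 3, 7.49 in wild-type 3 and 7.77 in wild-type 2. Elavl4 read 5.94 in mutant 3 and 5.71 in wild-type 3, against 4.88 to 5.55 in the eI hearts. Th read 6.26 and 6.19 in the same hearts, against 5.85 to 6.13. Stmn2, Elavl3, Prph and Isl2 had negative differences of eM minus eI (-0.14, -0.01, -0.12 and -0.08). In wild-type 3 they read 6.00, 6.17, 6.28 and 5.54, and Stmn2 was lowest in that heart. The part of these genes in the Isl1 value was not tested.

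The measured channel genes showed no difference between genotypes that exceeded the spread between hearts. Hcn2 read 5.59, 5.53 and 5.41 in mutant hearts, against 5.56, 5.60 and 5.44 in wild-type hearts, a difference of -0.02 (5.51 ± 0.09 and 5.53 ± 0.08, SD, n = 3 each). Its whole range over the 6 hearts was 0.19, and both eM hearts were just below all eI hearts. Hcn3 read 5.80, 6.30 and 5.94 in mutant hearts, against 6.42, 5.79 and 5.71 in wild-type hearts, a difference of 0.05 (6.02 ± 0.26 and 5.97 ± 0.39, SD, n = 3 each). Wild-type 1 and mutant 2 were high for Hcn3, so the genotypes overlapped fully. The Hcn3 difference was -0.05 within eI and 0.23 within the eM pair, and 0.32 with the Xist level in the model.

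**Figure D2:**
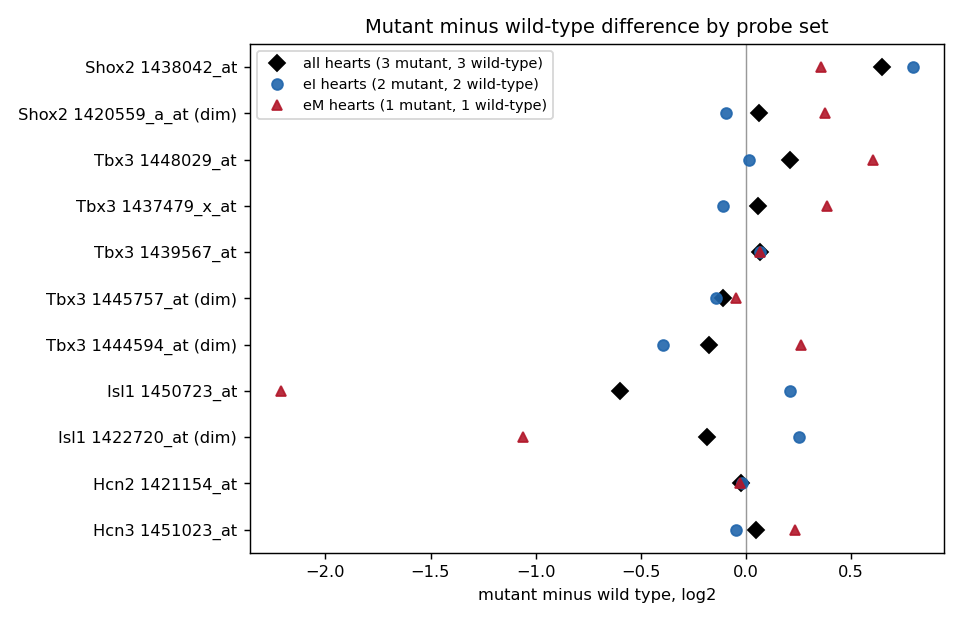
Mutant minus wild-type difference in log2 units (x axis) of each of the 11 probe sets (rows), over all hearts (diamonds), among eI hearts (circles) and in the single eM pair (triangles). Shox2 1438042_at is positive in all 3, at 0.65, 0.79 and 0.36, whereas both Isl1 probe sets are negative only where the eM pair enters.

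Of the 11 probe sets, 1 (Shox2 1438042_at) was higher in mutant hearts without overlap and 0 were lower. Among all 27022 tested probe sets, 2.4% were higher without overlap and 2.27% lower. With a fold of at least 1.5 added, Shox2 was 1 of 9 genes of 13572 (0.0663%). The Shox2 values chose that member, so nothing is read from these counts. Across the array, limma called 0 of 27022 probe sets between the genotypes (0% at an adjusted p of 0.05; 316, or 1.17%, at an unadjusted p under 0.05). On simulated arrays in which the eM and eI hearts differed as here, that fit recovered 16.8% of probe sets changed 2-fold and 0.199% of those changed 1.5-fold, for this comparison.

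Between eM and eI hearts, with genotype in the limma model, 1 of the 7 tested member probe sets passed an adjusted p of 0.05. The background is 11.7% of all 27022 tested probe sets called, 6.75% higher in eM and 4.94% lower. The call was Tbx3 at 1437479_x_at, at 8.03 and 7.64 in the eM hearts, against 6.80 to 7.04 in the eI hearts. The difference was 0.89 ± 0.14 log2 (SE; 95% interval 0.56 to 1.22; limma, adjusted p = 0.0145), and both eM hearts lay above all 4 eI hearts. Without mutant 3 it was 0.65 and the limma adjusted p was 0.169. In each of the other 5 fits that leave out a heart, it remained past the threshold (limma, adjusted p from 0.015 to 0.0488). The brightest Tbx3 probe set, 1448029_at, also had both eM hearts on top (8.26 and 7.66, against 7.30 to 7.50), with a difference of 0.55 ± 0.15 that did not pass (limma, adjusted p = 0.0666). Single hearts moved it: it was 0.26 without mutant 3 (limma, adjusted p = 0.457), 0.85 without wild-type 3 (limma, adjusted p = 0.051) and 0.64 without wild-type 1 (limma, adjusted p = 0.0336). With array weights it was 0.63 (limma, adjusted p = 0.0283), and with the Xist level in the model 0.52 (limma, adjusted p = 0.162).

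Over the 7 tested member probe sets, the eM hearts lay above all eI hearts at 2 and below them at 2, beside 22.8% and 20.3% of all tested probe sets. The third tested Tbx3 probe set, 1439567_at, had the opposite sign, with a difference of -0.16 and an interval of -0.37 to 0.05. For the Tbx3 difference the letters and RNA quality cannot be told apart, since the actin and 18S values above separate the same hearts.

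None of the remaining members passed between the letters. Isl1 1450723_at gave 1.18 (limma, adjusted p = 0.193), but it entered the fit only through wild-type 3: without that heart its mean fell under the filter and the difference was -0.03. Nothing is read from its test. Shox2 1438042_at gave -0.12 (interval -0.45 to 0.21; limma, adjusted p = 0.606). The eM mean of Shox2 was 5.89 and the eI mean 6.00. Among mutants the eM heart read 6.06, against 6.49 and 6.31, and among wild-type hearts 5.71, against 5.51 and 5.70. Hcn2 gave -0.14 (interval -0.35 to 0.06; limma, adjusted p = 0.315) and Hcn3 -0.25 (interval -0.78 to 0.28; limma, adjusted p = 0.496). The Hcn3 interval is the widest of these 3.

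**Figure D3:**
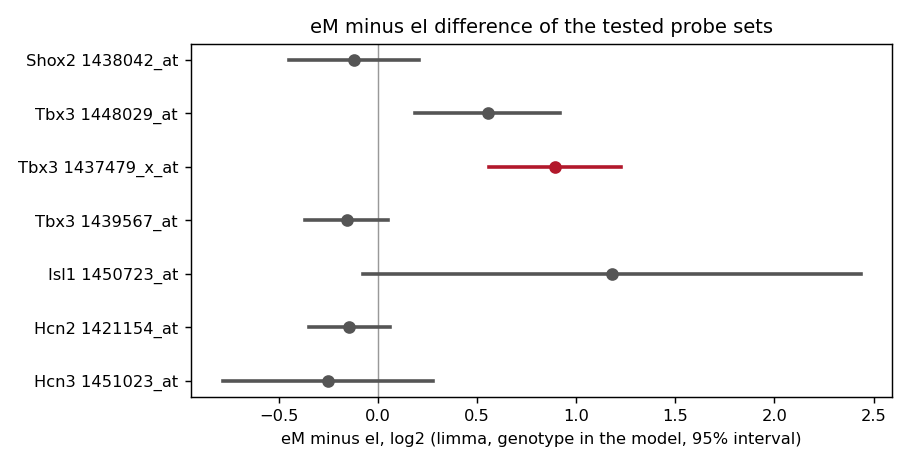
Difference of eM minus eI in log2 units (points, x axis) with its 95% limma interval (bars) for the 7 tested member probe sets (rows), the called one in red. Only Tbx3 1437479_x_at passed, at 0.89, and the wide interval of Isl1, from -0.07 to 2.43, rests on wild-type 3, which also brought it past the filter.

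Whether the mutant effect itself differed between eM and eI was tested as an interaction. Limma called 0 of 27022 probe sets (0%; 1438, or 5.32%, at an unadjusted p under 0.05), members included. Shox2 1438042_at had an estimate of -0.43 ± 0.22 (SE; limma, adjusted p = 0.916). The estimate of Isl1 1450723_at is not read, since wild-type 3 both brought it past the filter and sets its value. This fit has 1 pair of eM hearts and recovered 0% of 2-fold changes on simulated arrays, so it could not have shown a difference of that size.

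Other genes of sinus node biology were followed as lists. Of 101 genes named in 13 lists, 91 had a probe set and 76 were tested. Between eM and eI, limma called 10 of them higher and 4 lower, beside 4.47% higher and 5.82% lower (10.3% in all) of all 13572 genes. The lists were chosen with earlier results of these data known, so nothing is read from these counts beside that share. Among the lower ones, Sln and Afp passed the filter only through the eI hearts. Without mutant 2 or without mutant 3, limma called 0 of the list genes, and without mutant 1 it called 4. The letters differ by RNA quality signs as given above, whose part in these calls was not tested.

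Of 7 tested sinus node regulators other than the members, 2 rose in eM and 0 fell, with a median of 0.32 beside -0.03 over all genes. Tbx18, which forms the sinus horns and the head of the node, was 10.76 and 10.70 in eM hearts, against 9.64 to 10.34 in eI hearts (0.69 ± 0.14 SE; limma, adjusted p = 0.035). Tbx5, an activator of Shox2, was 8.49 and 8.55 against 7.83 to 8.19 (0.50 ± 0.09 SE; limma, adjusted p = 0.0302). Tbx2, a close relative of Tbx3 that acts in the atrioventricular canal, had a difference of 0.71 that did not pass (limma, adjusted p = 0.0604). Between genotypes Tbx18 read 10.34, 10.30 and 10.76 in mutant hearts, against 9.64, 9.86 and 10.70 in wild-type hearts, and overlapped. Nkx2-5, whose programme Shox2 holds back, read 10.65, 10.64 and 10.91 in mutant hearts, against 10.68, 10.57 and 10.45 in wild-type hearts, also with overlap. Bmp4, which lies downstream of Shox2, read 9.92, 9.64 and 9.13 against 9.38, 9.80 and 10.25.

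Of 9 tested genes of pacemaker currents and of coupling, 3 rose in eM and 0 fell, with a median of 0.27. Cacna1h, a T-type calcium channel, was 10.20 and 10.17 in eM hearts, against 9.20 to 9.40 in eI hearts (0.88 ± 0.09 SE; limma, adjusted p = 0.0131). Ryr2, the calcium release channel of the sarcoplasmic reticulum, differed by 0.76 and Cacna1d, an L-type channel of the node, by 0.61 (limma, adjusted p = 0.0131 and 0.0279). Slc8a1, the sodium-calcium exchanger, read lower in mutant hearts without overlap, at 8.73, 8.24 and 8.61, against 8.88, 8.77 and 8.78 in wild-type hearts. Among all genes tested, 2.25% were lower in mutant hearts without overlap. Partners of HCN channels and genes of cyclic AMP control were called at 0 of 10 tested, with a median of -0.07 (limma, adjusted p = 0.0582 for the caveolin gene Cav3, the smallest).

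Further sinus node markers gave 1 call in each direction among 6. Igfbp5 was 12.95 and 12.85 in eM hearts, against 12.50 to 12.57 in eI hearts, and Ntm was 7.20 and 8.15 against 8.41 to 8.86 (limma, adjusted p = 0.0367 and 0.0468). Of 5 tested working myocardium genes, the kind that Tbx3 represses, Gja1 fell and 0 rose. Gja1, the main gap junction gene of the ventricle, was 12.32 and 12.63 in eM hearts, against 12.97 to 13.08 in eI hearts (-0.55 ± 0.10 SE; limma, adjusted p = 0.0301). Nppa, the atrial natriuretic peptide gene, had -0.25 and did not pass (limma, adjusted p = 0.11). In the venous pole list 1 of 4 tested genes rose, Wnt2, at 8.58 and 7.54 in eM hearts, against 6.06 to 6.79 in eI hearts (limma, adjusted p = 0.0131).

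Marker lists of chambers and other tissues also held genes called between the letters. Of 7 atrial genes 1 was called, Sln, lower in eM, and of 5 ventricular genes 0 were called. Sln read 4.65 and 5.08 in the eM hearts, below the filter threshold of 5.38. It passed the filter only through the eI hearts, so nothing is read from its test. Of 6 cardiomyocyte genes 3 rose: Ttn by 1.64, Ryr2 by 0.76 and Myh6 by 0.67 (limma, adjusted p from 0.0131 to 0.0168). The median of this list was 0.36, above those of the sinus node regulators and pacemaker currents, and Ryr2 is also in the latter list. Msx1 rose by 0.53 among 4 limb and face genes (limma, adjusted p = 0.0354), and among 4 liver genes Afp was called lower in eM. Afp was 3.03 and 3.81 in the eM hearts, near the lowest values of the arrays, against 7.77 to 11.83 in the eI hearts, so no fold is given. Afp too passed the filter only through the eI hearts, and nothing is read from its test. Neuron genes (7 tested) and lung and foregut genes (4 tested) were called at 0.

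**Figure D4:**
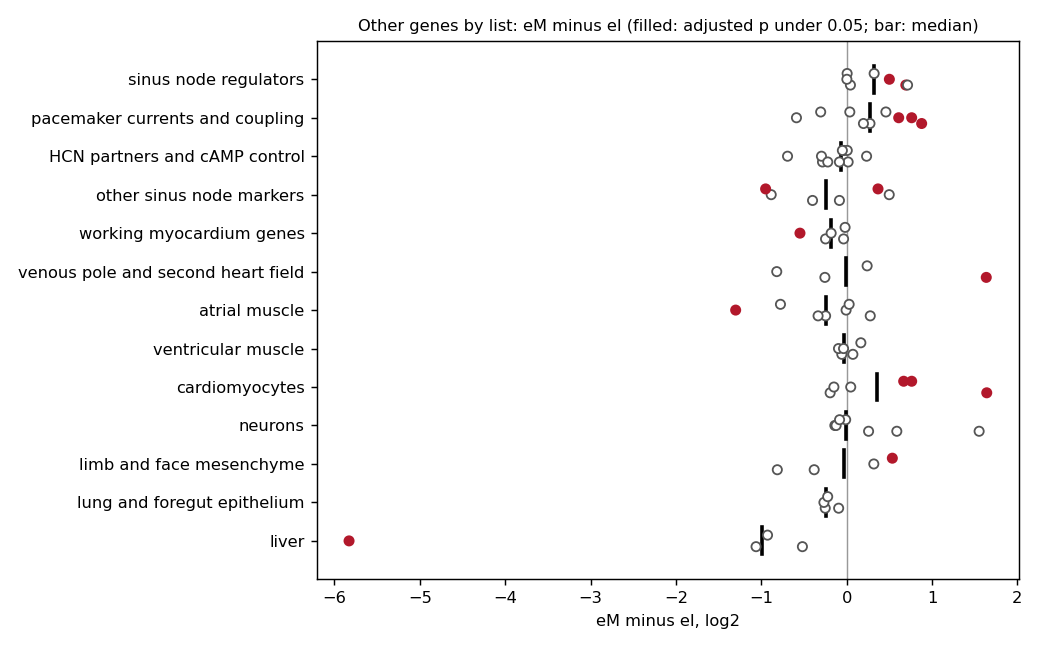
Difference of eM minus eI in log2 units (x axis) of each tested gene in 13 lists (rows), filled where the limma adjusted p was under 0.05, with the list median as a bar. Cardiomyocytes, sinus node regulators and pacemaker currents have medians of 0.36, 0.32 and 0.27, and the calls fall on both sides of 0 over the lists. The point farthest to the left is Afp, whose eM levels were 3.03 and 3.81.

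The genes whose profile over the 6 hearts was nearest to that of each member were found by the root mean square difference between mean-centred log2 values, among 13571 genes. For Shox2 they were Fzd6, a Wnt receptor gene (0.11), E430018J23Rik (0.13) and B4galt7, a galactosyltransferase gene of proteoglycan linkers (0.14), where the median over all genes was 0.38. Fzd6 read 8.77, 8.68 and 8.21 in mutant hearts, against 7.94, 7.90 and 7.85 in wild-type hearts, with a step down to the eM heart among the mutants. The search picks the closest profiles over these same values, so nothing is read from a shared pattern. For Tbx3 1448029_at they were Ccnk, Tfap4 and Utp4 (0.07 each), all highest in mutant 3.

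For Isl1 the nearest were Tnc, the matrix gene tenascin-C (0.42), Gata3 (0.47) and Mybpc1 (0.49), where the median was 0.89. Each was highest in wild-type 3, at 9.02, 6.96 and 7.54, though none as far above the other hearts as Isl1. For Hcn3 they were 1700121N20Rik, Olfr140 and Rph3a (0.05 each), all highest in wild-type 1 and next in mutant 2. Hcn2 varied too little over the hearts, under 0.5 log2, for a nearest profile.

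**Figure D5:**
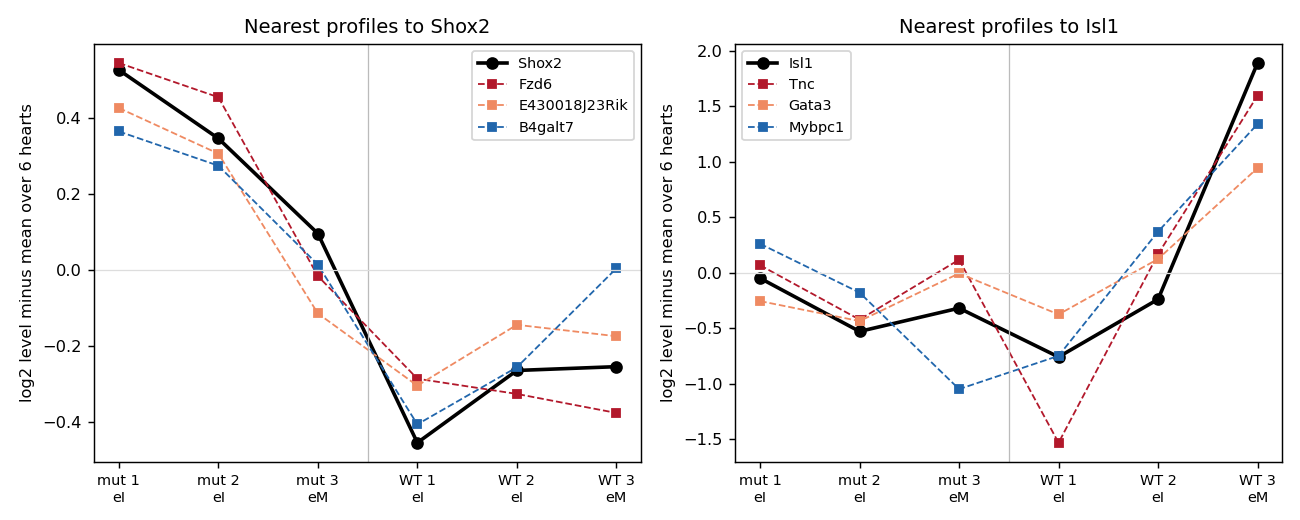
Log2 level minus the mean over the 6 hearts (y axis) in each heart (x axis) for Shox2 1438042_at, left, and Isl1 1450723_at, right, each with its 3 nearest genes. The Shox2 group is high in mutants 1 and 2, and the Isl1 group is high in wild-type 3. The genes were picked for this likeness.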

How the data were processed

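Total RNA of 6 mouse hearts was turned into biotin-labelled cRNA for hybridisation, per the labels' protocols. As deposited, each value is a log2 intensity. The authors used RMA, per the submitters' processing notes, with no version given. Values ran from 2.42 to 14.79. Controls (64 probe sets) were left out, as were, from tests, probe sets with a mean in the lowest 40% (below 5.38). This left 27022 probe sets, 7 of the 11 of the members. Genes were named from the platform annotation, where 34945 probe sets name 1 gene, 932 several (not used) and 9160 are unnamed here. Of the gene IDs, 34741 matched RefSeq's gene list on GRCm38.p6. A gene in a list was read at its probe set of highest mean.

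Fits used limma 3.58.1 in R 4.3.3 (lmFit, eBayes, two-sided, Benjamini-Hochberg over all probe sets or genes): genotype alone, letters with genotype, and their interaction. They were tested on 10 simulated sets of arrays each. Figures were drawn with matplotlib 3.10.9. Named genes were the members, the 3 genes of smallest p per list and contrast, and nearest profiles; of these the text gives mainly the called ones. Bmp4, chosen after its values were seen, stands outside that rule. Members and lists were chosen with earlier results of these data known.

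Same-numbered hearts, by title, deviated together from their group means (correlations 0.182, 0.363 and 0.74). Mutant 3 and wild-type 3 are the eM hearts, so these correlations cannot tell pairing from the letters. Same-numbered hearts were treated as pairs in an alternative fit. Alternatives were other filters, normalizations and variance settings, array weights, blocks, the Xist level, and leaving out hearts.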

Additional observations from a re-analysis of the deposited data

Results flagged for a closer look

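Among 69 results looked at, 5 had a single eI heart far from the other 3, by the gap to its neighbour as a share of the range; chance alone gives about 1 in 20 such results. None was a member. Wild-type 2 was low for Stard10 (8.48, against 9.09 to 9.19, share 0.856) and for Isl2 (5.46, against 5.86 to 5.93, share 0.86). It was high for Ttr (9.62, against 7.66 to 7.87, share 0.891). Wild-type 1 was low for Hey2 (8.19, against 8.79 to 8.90, share 0.849) and for Actc1 (14.40, against 14.61 to 14.65, share 0.849).

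At 3 dim member probe sets the mutant hearts lay on opposite sides of the wild-type hearts in eI and in eM. These were left out of the tests as dim, so the difference was not tested, and eM holds 1 pair. The mutant difference in eM minus that in eI was -1.31 for Isl1 1422720_at, 0.66 for Tbx3 1444594_at and 0.47 for Shox2 1420559_a_at.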

How the results depend on the processing

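The mutant minus wild-type difference of Shox2 1438042_at ran from 0.55 to 0.79 over 16 alternatives; its sign is fixed by how it was chosen, and the stricter filter left it out. The count called between genotypes was 0 with the replicate block (the paired fit), which changed no call, and in all other settings but those leaving out hearts, where it ran from 0 to 3, 3 without mutant 2 and 1 without wild-type 3. Between eM and eI, 3160 probe sets were called, 1114 with the Xist level as a covariate, and 1 to 4393 when hearts were left out: 1 without mutant 3, 904 without mutant 2, 1146 without wild-type 3 and 1248 without mutant 1. List genes called were 14, against 4 with the Xist level and 0 to 21 when hearts were left out. The eM minus eI difference of Shox2 ran from -0.34 to 0.10 when hearts were left out, positive without mutant 3, and that of Isl1 from -0.029 to 2.39, negative without wild-type 3. Tbx3 1437479_x_at stayed positive throughout. The causes were not tested. No alternative called a probe set in the interaction; leaving out eI hearts there was added after seeing the data. The letters hold no paired replicate numbers, so a block could not be fitted to them. Signal over background is not known from these values.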
